A study of Mus musculus with 48 samples.

Results

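The genes described here are 46 genes of the cell cycle, taken as a fixed list of symbols by a rule that uses no measured value, out of 34932 genes counted in the series. The list holds 10 DNA replication genes, 3 genes of nucleotide supply, 9 genes of G1 and the G1/S step, 21 genes of G2 and mitosis and 3 genes of cyclin-dependent kinase (CDK) inhibitors, and every one of them was found in the annotation. RNA was sequenced from cells sorted from subcutaneous B16F10 melanomas, which give the tumor-infiltrating leukocytes (TILs), and from the tumor-draining inguinal lymph node (TDLN). There were 12 groups of 4 libraries, 48 libraries in all, made of 3 sorted populations, 2 tissues and 2 genotypes.

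All mice were adult C57BL/6J animals. The mice called Yap-cKO were Yap floxed animals with a Cd4-Cre transgene and a lox-stop-lox EYFP reporter, and the controls called WT were their littermates. The Cd4 promoter drives Cre in developing T cells, so Yap is targeted in both the CD4+ and the CD8+ T cells, while the third sorted population, CD45+ cells that lack CD4 and CD8 (called CD45 below), is not a target of the deletion. B16F10 is a mouse melanoma line that divides quickly and grows in the flank of this strain. The labels number the libraries of a group from 1 to 4 but do not say which animal each came from, so p-values measure the spread between libraries.

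Cells that enter the cycle first raise D-type cyclins with their partner kinases Cdk4 and Cdk6, which release E2F factors from the retinoblastoma protein. E2F factors then induce cyclin E, the enzymes that make deoxynucleotides and the Mcm2-7 helicase with its loaders, and DNA is copied. Genes needed for G2 and mitosis, such as Cdk1, the B-type cyclins, Aurora and Polo kinases, checkpoint and kinetochore proteins, follow later through the MuvB complex, B-Myb and Foxm1. T cells in a lymph node are mostly resting, and dividing effector T cells in a tumor are commonly counted by the mitotic and proliferation marker Mki67.

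The genes that define the sorts were as the labels say. Cd4 lay between 104 and 1062 CPM (counts relative to library size, with TMM factors over all 48 libraries) in the 16 CD4 libraries and at or below 49.1 CPM in the others, and Cd8a between 218 and 1288 CPM in the 16 CD8 libraries and at or below 10.8 CPM elsewhere. The targeted gene Yap1 was low in every TDLN library, at 1.14 to 4.51 CPM in both genotypes. In TILs its level was 14.8 to 27.3 CPM in WT and 1.62 to 5.61 CPM in Yap-cKO CD4 cells, and 13.0 to 27.1 CPM in WT and 2.34 to 6.37 CPM in Yap-cKO CD8 cells. In CD45 TILs, which the deletion does not target, Yap1 stood at 2.71 to 5.34 CPM (WT) against 1.51 to 2.02 CPM (Yap-cKO), also without overlap, so the level of Yap1 in TILs does not by itself show the deletion. The 10 melanoma markers (Pmel, Mlana, Tyr, Tyrp1, Dct, Mitf, Sox10, Slc45a2, Gpr143 and Trpm1) summed to 3983 to 18100 CPM in WT and 46.2 to 2610 CPM in Yap-cKO T-cell TILs, so tumor RNA moved with genotype in these libraries, as Yap1 did. The same sum was 1110 to 1841 CPM in WT and 134 to 517 CPM in Yap-cKO CD45 TILs, and 5.77 to 27.1 CPM in the TDLN libraries. The summed level of 4 Y-linked genes was 43.3 to 424 CPM in WT replicates 1 to 3 and 2.51 to 19.0 CPM in WT replicate 4 and in every Yap-cKO library, so WT replicates 1 to 3 stand apart from all other libraries. Depth was 12656510 to 24213892 gene counts per library, and 3 counts correspond to 0.124 to 0.237 CPM.

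Promoter stretches are shown for 3 mitosis and 3 replication genes because these roles are compared throughout. Each is the 120 bases just upstream of the RefSeq start on GRCm38.p6, printed 5′ to 3′ on the gene's own strand. Capitals mark matches, on either strand, to TTTGAA (core of the cell cycle genes homology region bound by MuvB), CCAAT (the NF-Y box) or TTTNNCGC (a core of E2F sites), and matches may overlap, as 2 E2F cores on opposite strands do in the first stretch of Mcm6. The Cdk1 stretch lies at chr10:69352913-69353032, minus strand, that of Ccnb2 at chr9:70421555-70421674, minus strand, and that of Top2a at chr11:99024190-99024309, minus strand. The Mcm6 stretch lies at chr1:128359706-128359825, minus strand, that of Mcm5 at chr8:75109389-75109508, plus strand, and that of Pcna at chr2:132253181-132253300, minus strand.
Cdk1: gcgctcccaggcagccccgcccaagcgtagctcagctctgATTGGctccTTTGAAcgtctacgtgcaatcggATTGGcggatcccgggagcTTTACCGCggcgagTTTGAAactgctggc
Ccnb2: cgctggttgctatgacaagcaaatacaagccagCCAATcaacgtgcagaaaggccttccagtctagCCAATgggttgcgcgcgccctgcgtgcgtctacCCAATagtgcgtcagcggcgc
Top2a: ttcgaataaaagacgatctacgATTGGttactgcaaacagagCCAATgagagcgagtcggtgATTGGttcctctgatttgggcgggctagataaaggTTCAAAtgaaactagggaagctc
Mcm6: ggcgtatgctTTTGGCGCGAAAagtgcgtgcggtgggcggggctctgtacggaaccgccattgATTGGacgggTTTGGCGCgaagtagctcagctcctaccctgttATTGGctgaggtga
Mcm5: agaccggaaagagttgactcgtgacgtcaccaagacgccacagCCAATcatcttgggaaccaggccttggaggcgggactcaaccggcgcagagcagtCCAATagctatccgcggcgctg
Pcna: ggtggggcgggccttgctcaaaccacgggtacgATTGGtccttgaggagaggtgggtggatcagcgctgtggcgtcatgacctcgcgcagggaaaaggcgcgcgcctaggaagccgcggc
RefSeq promoters, from 250 bases before to 50 bases after the start, were matched for 36 of the 46 genes. TTTGAA was present in 10 of 15 mitosis promoters (66.7%) and 2 of 9 replication promoters (22.2%), and in 18.1% of 27025 promoters of all genes. CCAAT was present in 14 of the 15 mitosis and 7 of the 9 replication promoters (93.3% and 77.8%), against 37.9% of all promoters. TTTNNCGC was present in 1 mitosis promoter (6.67%) and 6 replication promoters (66.7%), against 5.27% of all promoters. All 10 mitosis promoters with TTTGAA also held CCAAT, a pair present in 7.12% of all promoters, and none of the promoters of 6 G1/S genes or 3 inhibitors held TTTGAA. A match describes letters in this window and not a bound site.

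Compared per length, in length-normalized TPM, levels spanned a wide range within each role. Pcna, the sliding clamp of DNA polymerase, had the highest mean TPM of the 10 replication genes in all 12 groups, from 96.7 ± 5.16 (SD, n = 4 here and for every group mean) in Yap-cKO CD45 TILs to 271 ± 76.3 in Yap-cKO CD4 TDLN cells. Cdc6, which loads the helicase, had the lowest in all 12 groups, from 1.10 ± 1.23 TPM in Yap-cKO CD45 TDLN cells to 19.1 ± 3.72 TPM in WT CD8 TILs. Stmn1, a microtubule destabilizer that lymphocytes also use outside mitosis, was the most abundant mitosis gene in every group, at 63.8 ± 8.58 to 430 ± 32.9 TPM. The kinetochore motor Cenpe was the least abundant in 10 of 12 groups and never exceeded a mean of 2.48 ± 1.80 TPM. The most abundant G1/S gene in T cells was Ccnd2 (cyclin D2), at 637 ± 91.8 TPM in WT CD4 and 675 ± 157 TPM in WT CD8 TDLN cells, with Cdk4 ahead of it only in WT CD8 TILs (472 ± 96.5 TPM). In CD45 cells the most abundant was Cdk4 in TDLN and Ccnd3 in TILs, in both genotypes. Ccnd1 (cyclin D1) was the lowest G1/S gene in T cells of the TDLN, with a mean of 0.248 ± 0.101 TPM in WT CD4 cells.

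In T cells, of the summed levels of the 5 roles, TILs and TDLN differed most in the mitosis genes, followed in WT cells by nucleotide supply (TIL over TDLN ratios of 3.48 in CD4 and 5.46 in CD8 cells), while in CD45 cells the inhibitor genes changed more, with a summed level in TILs 8.13 (WT) and 16.7 (Yap-cKO) times that in TDLN. In WT CD4 cells the 21 mitosis genes summed to 2209, 1759, 1235 and 1395 CPM in the 4 TIL libraries and to 371, 403, 438 and 483 CPM in the 4 TDLN libraries. In WT CD8 cells the sums were 2201, 1891, 1286 and 1737 CPM in TILs and 229, 321, 298 and 226 CPM in TDLN. In both cell types every TIL library was above every TDLN library, and the ratio of the means was 3.89 in CD4 and 6.62 in CD8 cells. In Yap-cKO T cells the groups were likewise apart, with ratios of 3.08 (CD4) and 3.68 (CD8), while in CD45 cells the ratio was 1.87 in WT and 1.22 in Yap-cKO, where TIL and TDLN libraries overlapped. These are bulk libraries, in which fewer cells of a kind and less RNA per cell cannot be told apart.

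The summed level of the 10 replication genes moved far less. TILs stood at 1.35 times the TDLN mean in WT CD4 and 1.39 times in WT CD8 cells, at 1.21 and 1.2 times in Yap-cKO CD4 and CD8 cells, and at 0.716 (WT) and 0.623 (Yap-cKO) times in CD45 cells. The mitosis sum over the replication sum was 0.187 to 0.253 in the WT CD8 TDLN libraries and 0.869 to 1.33 in WT CD8 TILs. In WT CD4 cells the ratio was 0.324 to 0.501 in TDLN and 0.992 to 1.18 in TILs. In the Yap-cKO it was 0.260 to 0.403 against 0.691 to 1.02 in CD4 cells and 0.216 to 0.267 against 0.453 to 0.907 in CD8 cells. The ratio does not depend on the scaling of a library, and it did not overlap between tissues in any of the 6 pairings of population and genotype, with CD45 cells at 0.253 to 0.336 against 0.708 to 0.860 in WT and 0.215 to 0.327 against 0.370 to 0.623 in the Yap-cKO.

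**Figure D1:**
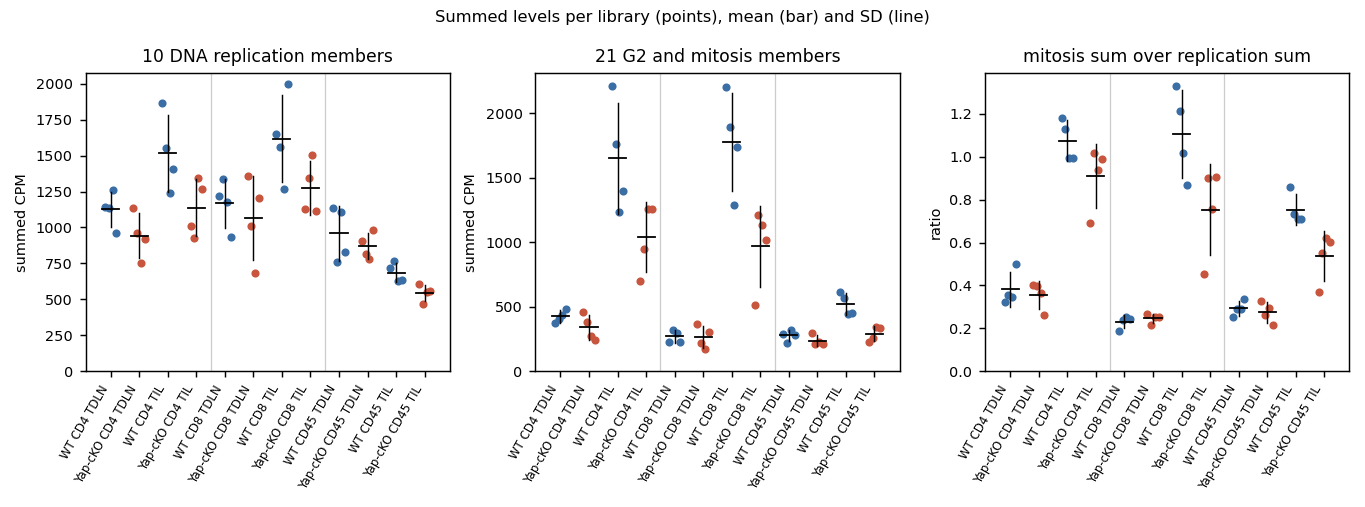
Summed CPM of the 10 DNA replication genes (left), of the 21 G2 and mitosis genes (middle) and the ratio of the mitosis sum to the replication sum (right), with 1 point per library, a bar at the mean and a line of 1 SD for each of the 12 groups (blue WT, red Yap-cKO). The mitosis sum and the ratio rise from TDLN to TIL in both T-cell types, from ratios of 0.187 to 0.501 in WT TDLN to 0.869 to 1.33 in WT TILs, while the replication sums of TIL and TDLN overlap in both T-cell types and genotypes.

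Genes were tested with edgeR's quasi-likelihood test across all genes with enough counts, and a gene was called at a Benjamini-Hochberg adjusted p under 0.05 with an absolute log2 fold change above 1. Of the 46 genes, 28 were called higher in TILs than in TDLN in WT CD4 cells (22.9% of all genes tested were called higher there), 34 in WT CD8 cells (22.5%), 24 in Yap-cKO CD4 cells (12.4%) and 27 in Yap-cKO CD8 cells (10.9%), and none was called lower in these 4 comparisons (14.4%, 15.2%, 6.07% and 5.01% of all genes). In CD45 cells 22 were called higher and 2 lower in WT (21.9% and 18% of all genes), and 19 higher and 2 lower in the Yap-cKO (21.8% and 18.5%). The median log2 fold change of the 46 genes was 1.72, 2.19, 1.59 and 1.83 in those T-cell comparisons, in the same order, and 0.99 and 0.92 in WT and Yap-cKO CD45 cells, where the medians of all genes lay between -0.09 and 0.02.

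By role, of the 21 mitosis genes, 16 were called higher in WT CD4 cells, 20 in WT CD8 cells, 16 in Yap-cKO CD4 cells and 18 in Yap-cKO CD8 cells, with medians of 2.47, 3.85, 2.47 and 3.20 on the log2 scale. In CD45 cells 15 (WT) and 13 (Yap-cKO) were higher, with medians of 1.96 and 1.26. Of the 10 replication genes, 2, 3, 1 and 2 were called higher in the same 4 T-cell comparisons, with medians of 0.65, 0.55, 0.52 and 0.33, and in CD45 cells none was higher and 1 was lower in each genotype, with medians of -0.34 and -0.61. At an adjusted p alone, with no minimum fold, 6 of the 10 passed in WT CD4 cells (47.1% of all genes), 5 in WT CD45 cells (49.4%) and 5 in Yap-cKO CD45 cells (55.9%). All 3 nucleotide supply genes were higher in both WT T-cell types and 2 of 3 in the other comparisons.

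**Figure D2:**
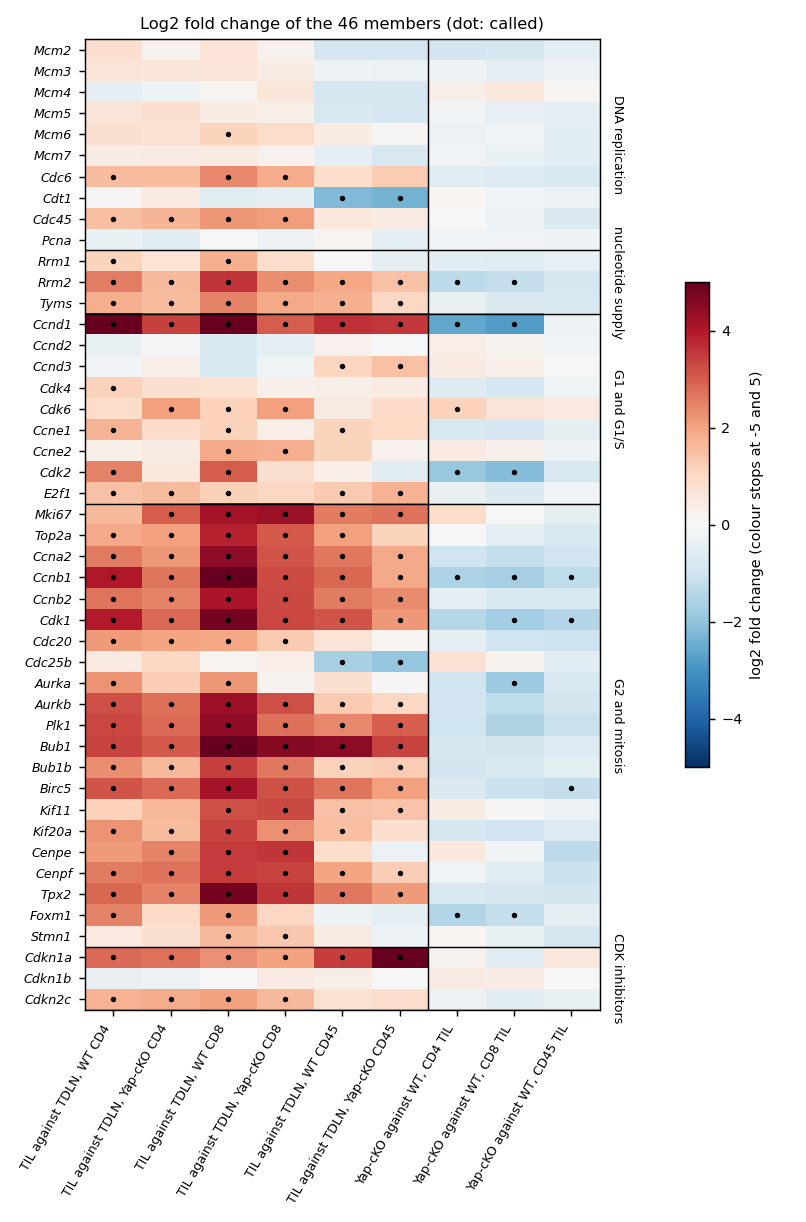
Log2 fold change of each of the 46 genes (rows, grouped by role) in 6 comparisons of TIL with TDLN and in 3 comparisons of Yap-cKO with WT TILs (columns), red for higher and blue for lower, with colour stopping at 5 and -5 and a dot where the gene was called. Dots fill the G2 and mitosis block in the tissue comparisons, with 20 of 21 in WT CD8 cells, while the Mcm genes and Pcna stay pale.

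Among mitosis genes, Cdk1, the kinase that drives entry into mitosis, was at 7.98, 10.6, 9.72 and 12.5 CPM in WT CD4 TDLN libraries and at 240, 183, 123 and 99.3 CPM in WT CD4 TILs, a log2 fold change of 3.97 (SE 0.306, adjusted p = 1.401e-06). In WT CD8 cells it was at 4.32, 8.72, 6.202 and 5.27 CPM in TDLN and at 219, 168, 89.5 and 172 CPM in TILs (log2 fold change 4.77, SE 0.376). Every TIL library stood far above every TDLN library in both cell types. Its partner Ccnb1 (cyclin B1) rose by 4.00 (SE 0.352) in WT CD4 and by 5.13 (SE 0.522) in WT CD8 cells on the log2 scale, the largest rise of a mitosis gene in WT CD4 cells. Bub1, a spindle checkpoint kinase, rose by 5.53 in WT CD8 cells. That fold rests on low TDLN counts, since Bub1 had too few in CD8 and CD45 TDLN cells for the test between genotypes. Cdk1 lies at chr10:69335146-69352938 and Ccnb1 at chr13:100778650-100786570, both on the minus strand of GRCm38 in the GENCODE M21 annotation.

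The breadth of the mitosis change is seen from the genes called higher in all 6 tissue comparisons. There were 15 of them among the 46, and 11 were mitosis genes: the kinases Aurkb, Bub1, Bub1b, Cdk1 and Plk1, the cyclins Ccna2, Ccnb1 and Ccnb2, the chromosomal passenger protein Birc5, the kinetochore protein Cenpf and the spindle assembly factor Tpx2. In CD8 and CD45 cells the call of Bub1 rests on low TDLN counts. Plk1, for example, rose by 3.33 and 4.42 in WT CD4 and CD8 cells, by 2.85 and 2.77 in the Yap-cKO cells and by 2.40 and 2.99 in WT and Yap-cKO CD45 cells, on the log2 scale. The other 4 were Rrm2 and Tyms of nucleotide supply, Ccnd1 and the inhibitor gene Cdkn1a. Cdc25b, a phosphatase that activates Cdk1, was the mitosis gene called higher in none, with log2 fold changes of 0.12 to 1.02 in T cells, and it fell by 1.64 (WT) and 1.95 (Yap-cKO) in CD45 cells, from 100.7 ± 19.4 to 33.2 ± 12.7 CPM in WT.

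Mki67, the marker of proliferation, was not called in WT CD4 cells, where 1 TDLN library stood apart. In WT CD4 TDLN it was at 0.861, 0.827 and 0.726 CPM in replicates 1 to 3 and at 24.9 CPM in replicate 4, and in WT CD4 TILs at 38.9, 7.76, 19.8 and 17.9 CPM. The TDLN replicate 4 level thus lay above 3 of the 4 TIL libraries, and the change was 1.60 (SE 1.01, adjusted p = 0.2106), not called. Without that library Mki67 rose by 4.71 on the log2 scale and was called. Top2a, the topoisomerase that untangles sister chromatids, showed the same library at 64.2 CPM against 6.76 to 10.7 CPM in the other 3, and its change was 1.88 (SE 0.666). In WT CD8 cells the TDLN replicate 4 was also the highest, at 6.14 against 0.185 to 0.638 CPM, but Mki67 rose by 4.15 (SE 0.968, adjusted p = 0.004859), and it rose by 3.04 and 4.32 in Yap-cKO CD4 and CD8 cells. Ptprc, a long transcript that all leukocytes carry, was likewise higher in replicate 4 (2222 against 494 to 739 CPM in WT CD4 TDLN and 2407 against 256 to 412 CPM in WT CD8 TDLN). Such levels were not particular to these libraries. Ptprc was also at 1617 to 2105 CPM in Yap-cKO CD4 TDLN replicates 2 to 4. In Yap-cKO CD8 TDLN replicates 2 and 3 it was at 1316 and 1879 CPM. The part of whatever sets the libraries with high Ptprc apart was not tested.

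**Figure D3:**
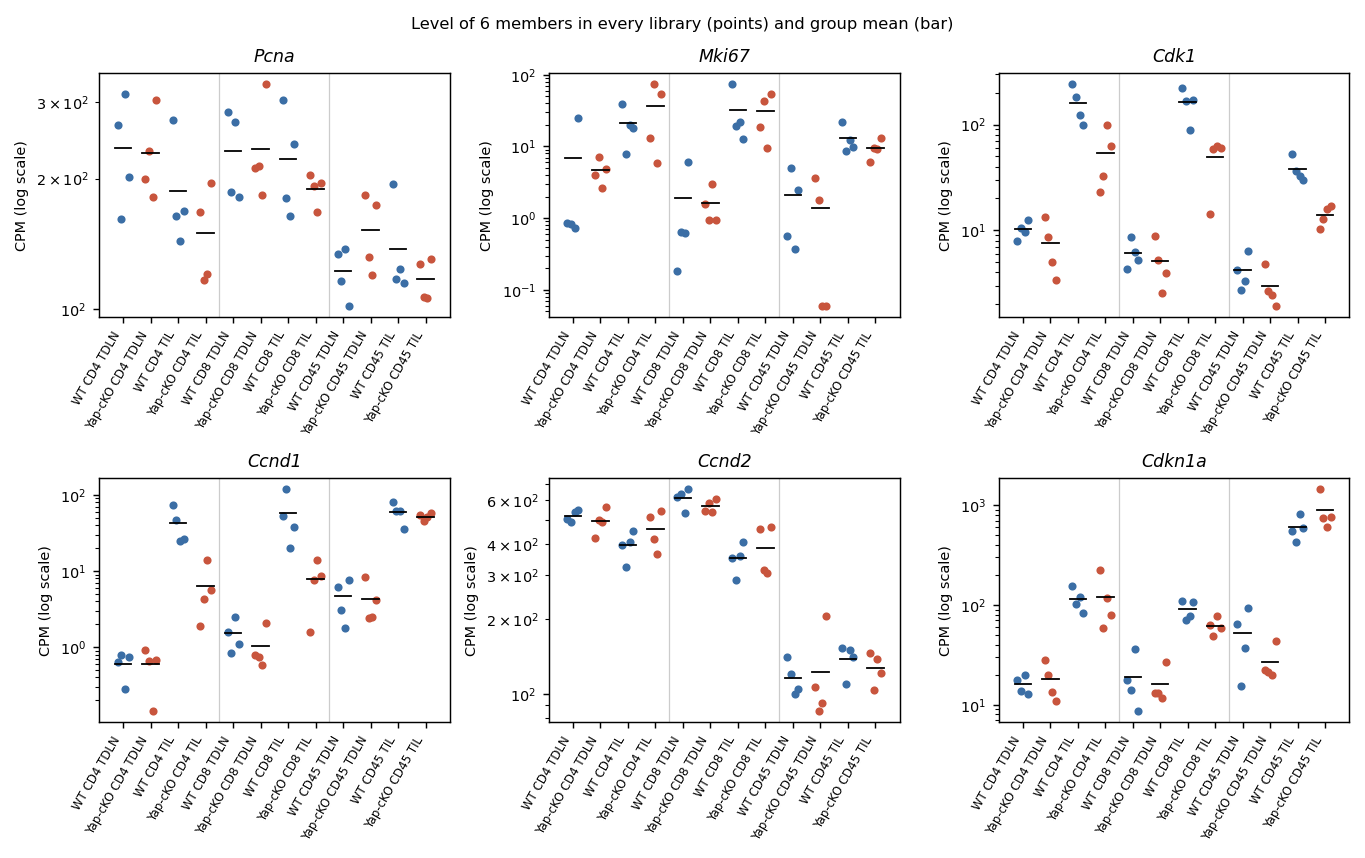
CPM on a log axis of Pcna, Mki67, Cdk1, Ccnd1, Ccnd2 and Cdkn1a in each of the 48 libraries (points; blue WT, red Yap-cKO) with the mean of each group (bar). Cdk1 separates TIL from TDLN in all 6 pairings of population and genotype, Ccnd1 in all but Yap-cKO CD8 cells, where 1 TIL library at 1.56 CPM lies below 1 TDLN library at 2.06 CPM, Pcna does not in any of the 6 pairings, and Mki67 shows the WT CD4 TDLN library at 24.9 CPM apart from the other 3.

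Among replication genes, the subunits of the Mcm2-7 helicase and the clamp Pcna changed little between tissues with the scaling on all genes, which this paragraph uses. T-lineage genes in TILs summed to 0.406 (WT CD4) and 0.371 (WT CD8) times their TDLN mean. With T-lineage genes setting the scale, most replication genes were called in WT CD4 cells and all of them in WT CD8 cells. Pcna (chr2:132249162-132253314, minus strand) was at 265, 162, 314 and 202 CPM in WT CD4 TDLN and at 272, 164, 144 and 169 CPM in WT CD4 TILs, and its log2 fold changes over the 6 comparisons lay between -0.56 and 0.13 with none called. Mcm5 was at 125, 160, 132 and 93.7 CPM in WT CD4 TDLN and at 239, 203, 181 and 170 CPM in the TILs, which did not overlap, but at a log2 fold change of 0.63 (SE 0.217, adjusted p = 0.0301) it stayed under the fold minimum. Of the 6 Mcm genes only Mcm6 was called in any comparison, in WT CD8 cells, from 145 ± 24.6 CPM in TDLN to 306 ± 43.2 CPM in TILs (log2 fold change 1.12, adjusted p = 0.00254). Mcm2, Mcm3, Mcm4, Mcm5, Mcm7, Pcna and Cdt1 were called higher in none of the 6.

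Besides Mcm6, the replication genes called higher in T cells with the scaling on all genes were Cdc6 and Cdc45. Cdc6 went from 5.80, 11.9, 5.78 and 4.75 CPM in WT CD8 TDLN to 33.2, 36.6, 27.8 and 47.1 CPM in TILs (log2 fold change 2.40, SE 0.356), and Cdc45, which joins the helicase when origins fire, from 11.6 ± 1.52 to 52.5 ± 8.09 CPM (log2 fold change 2.22, SE 0.269). Cdc45 was called higher in all 4 T-cell comparisons, at 1.49 to 2.22, and Cdc6 in 3 of them, with 1.54 (adjusted p = 0.05232) in Yap-cKO CD4 cells. Cdt1, the other loader of the helicase, was not called in T cells, with log2 fold changes of -0.62 to 0.40. In CD45 cells Cdt1 fell, from 206, 131, 161 and 158 CPM in WT TDLN to 39.8, 36.3, 29.2 and 40.8 CPM in WT TILs (log2 fold change -2.21, SE 0.228), and by 2.37 (SE 0.179) in the Yap-cKO. The CD45 gate held different cells in the tissues: B-cell markers summed to a mean 6.79 times lower in WT TILs than in WT TDLN, and the 8 myeloid markers summed to 22960 to 33180 CPM in WT TILs and to 223 to 3722 CPM in WT TDLN. The part of this shift in the CD45 results was not tested.

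Of the genes of nucleotide supply, Rrm2 and Tyms were called higher in all 6 tissue comparisons and Rrm1 in 2. Rrm2, the cell cycle regulated subunit of ribonucleotide reductase (chr12:24708241-24714146, plus strand), was at 41.2, 41.9, 55.6 and 58.2 CPM in WT CD4 TDLN and at 429, 299, 179 and 245 CPM in TILs, a log2 fold change of 2.54 (SE 0.285, adjusted p = 2.279e-05). In WT CD8 cells it rose by 3.59 (SE 0.320), and in WT CD45 cells from 12.6 ± 0.401 to 49.8 ± 9.39 CPM, by 1.93 (SE 0.216). Tyms, thymidylate synthase, rose in all 6 comparisons by 1.02 to 2.5 on the log2 scale. Rrm1, the constant subunit, rose in WT CD4 (1.11) and WT CD8 cells (1.79), stood at 0.69 and 0.89 in Yap-cKO T cells, not called, and at -0.01 and -0.44 in CD45 cells.

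D-type cyclins did not move as a group. Ccnd1 (chr7:144929931-144939925, minus strand) was at 0.631, 0.778, 0.279 and 0.738 CPM in WT CD4 TDLN and at 74.4, 46.9, 24.7 and 26.3 CPM in WT CD4 TILs. The log2 fold change was 6.12 (SE 0.476, adjusted p = 1.49e-06), the largest of the 46 genes in that comparison, and 5.26 (SE 0.615) in WT CD8 cells, but 3.4 and 3.01 in Yap-cKO CD4 and CD8 cells. Ccnd1 shares 1100 bases of exon with LTO1 on the opposite strand. In WT CD4 TIL replicates 1 to 4 the melanoma markers summed to 18100, 13370, 5821 and 8212 CPM, the same order as Ccnd1. The part of tumor RNA in the level of Ccnd1 was not tested. Ccnd2, the main D-type cyclin of T cells, was at 506, 489, 537 and 546 CPM in WT CD4 TDLN and 396, 322, 409 and 453 CPM in TILs, a change of -0.39 (SE 0.215) that was not called, and in WT CD8 cells it stood at -0.76 (adjusted p = 0.02498), under the fold minimum. Ccnd3 was called higher only in CD45 cells, by 1.09 (WT) and 1.46 (Yap-cKO), with -0.77 to 0.25 in T cells. A difference between these cyclins was not tested as such.

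Of the other G1/S genes, Cdk6, the D-cyclin kinase most used by T cells, was at 14.4, 15.8, 14.2 and 20.7 CPM in Yap-cKO CD4 TDLN and at 83.1, 56.2, 47.9 and 74.5 CPM in Yap-cKO CD4 TILs (log2 fold change 2.05, SE 0.298), and rose by 2.04 in Yap-cKO CD8 and 1.16 in WT CD8 cells. Cdk2 (chr10:128697939-128705031, minus strand), which acts with cyclin E and cyclin A, was at 59.8, 89.3, 70.4 and 56.0 CPM in WT CD4 TDLN and at 564, 477, 229 and 271 CPM in WT CD4 TILs, a rise of 2.48 (SE 0.309), and rose by 3.04 in WT CD8 cells. In Yap-cKO T cells Cdk2 stood at 0.52 and 0.81 on the same scale, neither called. Cdk2 overlaps the melanocyte gene Pmel, one of the melanoma markers, by 34 bases of exon on the opposite strand. Ccne1 (cyclin E1) rose in the 3 WT populations by 1.72, 1.17 and 1.12 and was not called in the Yap-cKO (0.91, 0.30 and 0.98). E2f1, the activating E2F factor, rose in 5 comparisons by 1.18 to 1.72 and stood at 1.02 (adjusted p = 0.07463) in Yap-cKO CD8 cells.

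None of the 3 inhibitor genes on the list was called lower where mitosis genes rose. Cdkn1a, the p53 target that blocks CDKs and binds Pcna (chr17:29090976-29100727, plus strand), was at 17.8, 13.9, 19.8 and 13.0 CPM in WT CD4 TDLN and at 157, 102, 120 and 82.9 CPM in WT CD4 TILs, a rise of 2.84 (SE 0.255). In CD45 cells it reached its highest levels of all groups, at 557, 426, 822 and 591 CPM in WT TILs and 1443, 735, 608 and 756 CPM in Yap-cKO TILs, rises of 3.46 (SE 0.515) and 4.99 (SE 0.373) over TDLN. Cdkn2c, which inhibits Cdk4 and Cdk6, rose in all 4 T-cell comparisons by 1.64 to 2.03. Cdkn1b, which holds resting T cells out of the cycle, was at 45.1, 30.3, 46.8 and 49.2 CPM in WT CD4 TDLN and at 31.2, 27.7, 37.3 and 35.8 CPM in TILs, and its 6 changes of -0.37 to 0.40 were not called.

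A wider set of cell cycle genes, listed by role with earlier results of these data known, was also compared between tissues. Over all genes 22.9%, 22.5%, 12.4% and 10.9% were called higher in WT CD4, WT CD8, Yap-cKO CD4 and Yap-cKO CD8 cells. In the same order 14.4%, 15.2%, 6.07% and 5.01% were called lower. In WT and Yap-cKO CD45 cells 21.9% and 21.8% were called higher, and 18% and 18.5% lower. Of 48 other mitosis genes, 37, 42, 32 and 37 were higher in TILs in WT CD4, WT CD8, Yap-cKO CD4 and Yap-cKO CD8 cells, with medians of 2.13, 2.91, 1.84 and 2.28, and 1 was lower, the condensin gene Smc4 in WT CD4 cells (-1.95). Of 35 other replication genes, 16, 19, 10 and 12 were higher, with medians of 0.97, 1.10, 0.70 and 0.78, a larger share than among the 10 replication genes described above, among them Mcm10, which was higher in all 6 tissue comparisons. In WT and Yap-cKO CD45 cells 23 and 14 of the 48 other mitosis genes were higher, and 4 and 1 of the 35 other replication genes were higher while 3 and 5 were lower, with Cdc7, Orc1 and Pold1 lower in both. Cdkn3, a phosphatase of the CDKs, was higher in all 6 comparisons by 1.86 to 4.07. Cdkn1c, another inhibitor gene, was lower in TILs in WT CD4 (-1.55) and WT CD8 cells (-2.67) and higher in Yap-cKO CD45 cells (1.07). Of 12 genes of the retinoblastoma and E2F families, 2, 3, 0 and 3 were higher, and those were the repressors E2f7 and E2f8 and, in CD8 cells, E2f2 or E2f3. Of 8 genes tied to T-cell quiescence, 6, 7, 4 and 2 were lower, including Foxo1, which fell by 1.23 to 2.21 in T cells and by 2.98 and 3.10 in CD45 cells. With T-lineage genes setting the scale, the median of the 46 genes was 3.42 in WT CD4 cells (1.72 with the usual scale), 3.93 in WT CD8 cells (2.19), 1.91 in Yap-cKO CD4 cells (1.59) and 2.20 in Yap-cKO CD8 cells (1.83). The quiescence genes were not tested on that scale. In the same order their sum in TILs was 0.328, 0.283, 0.538 and 0.555 times that in TDLN, and the T-lineage sum 0.406, 0.371, 0.828 and 0.706 times.

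TILs differed from TDLN cells in tumor RNA as well as in tissue. Melanoma markers and tissue cannot be told apart in WT cells, where the tissue explained 0.99 (CD4), 0.987 (CD8) and 0.98 (CD45) of the spread of the log melanoma sum. In Yap-cKO cells it explained 0.892 (CD4), 0.692 (CD8) and 0.944 (CD45), so the 2 are largely confounded there too. The part of tumor RNA in the tissue differences was not tested. Yap-cKO CD8 TIL replicate 1 held 46.2 CPM of melanoma markers, and its mitosis sum was 512 CPM, above the 363 CPM of the highest CD8 TDLN library of either genotype. Yap-cKO CD4 TIL replicate 1 held 177 CPM of melanoma markers and a mitosis sum of 698 CPM, above the 483 CPM of the highest CD4 TDLN library. In both populations these libraries had the lowest mitosis sums of their groups, whose others were at 1014 to 1212 CPM (CD8) and 947 to 1259 CPM (CD4). In WT TILs the library with the most melanoma RNA had the highest mitosis sum in each of the 3 populations, at 2209, 2201 and 615 CPM. WT CD45 TIL replicate 4 held nearly as much melanoma RNA (1820 against 1841 CPM) but a mitosis sum of 448 CPM. In Yap-cKO TILs the library with the most melanoma RNA was not the highest in CD8 (1137 against 1212 CPM) or CD45 cells (334 against 341 CPM). In Yap-cKO CD4 TILs that library, replicate 3, shared the highest sum of 1259 CPM with replicate 4.

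**Figure D4:**
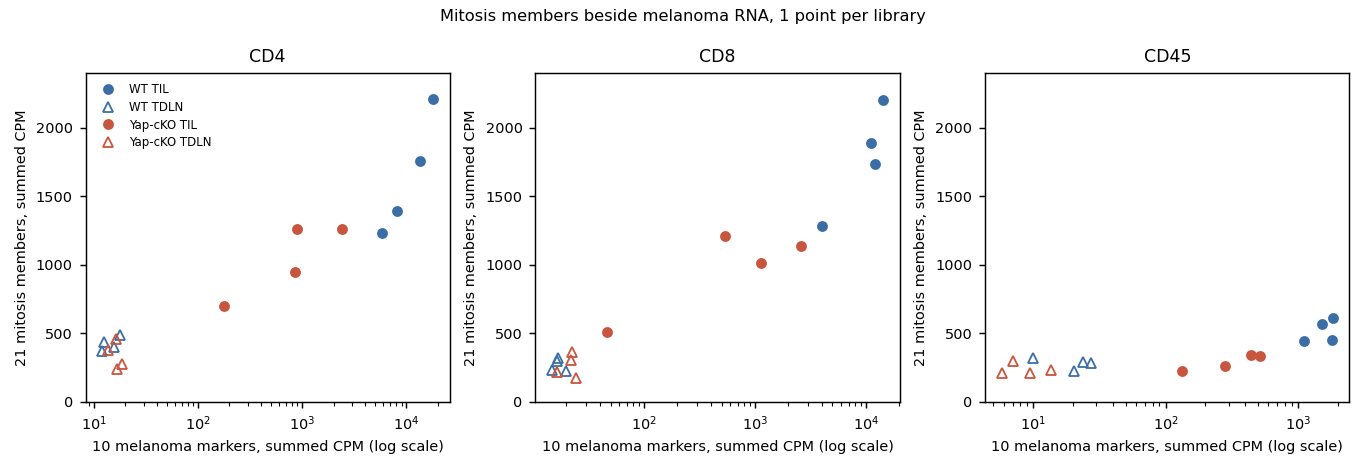
Summed CPM of the 21 mitosis genes (vertical axis) against the summed CPM of 10 melanoma markers (horizontal log axis), 1 point per library in CD4, CD8 and CD45 cells (filled circles TIL, open triangles TDLN; blue WT, red Yap-cKO). WT TILs lie to the right of Yap-cKO TILs in every panel, and the Yap-cKO CD8 TIL library at 46.2 CPM of melanoma markers stands at 512 CPM, above all CD8 TDLN libraries.

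The genotypes were compared to ask what loss of Yap in T cells changes. Of the 21 mitosis genes, 2 were called lower in Yap-cKO CD4 TILs, 4 in CD8 TILs and 3 in CD45 TILs, and none higher, with the shares over all genes given below. In CD8 TILs the mitosis sum was 512, 1212, 1137 and 1014 CPM in the Yap-cKO and 2201, 1891, 1286 and 1737 CPM in WT, at a ratio of 0.545 with no overlap. In CD45 TILs, which the deletion does not target, it was 223, 257, 341 and 334 CPM in the Yap-cKO and 615, 565, 446 and 448 CPM in WT, at a ratio of 0.557, again with no overlap. In CD4 TILs the Yap-cKO libraries at 698, 947, 1259 and 1259 CPM overlapped the WT libraries at 2209, 1759, 1235 and 1395 CPM, at a ratio of 0.631. A difference between the populations was not tested.

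Few single genes passed. In CD4 TILs 6 of the 46 were called, 5 lower and 1 higher in the Yap-cKO (6.66% and 1.36% of all genes were called in these directions), in CD8 TILs 7, all lower (9.14%), and in CD45 TILs 3, all lower (0.925%). The medians of the 46 genes were -0.38, -0.62 and -0.53 on the log2 scale, where the medians of all genes were 0.14, 0.08 and 0.02. The 21 mitosis genes alone had medians of -0.80, -0.93 and -0.83. At an unadjusted p under 0.05 the counts were 12, 23 and 26 of 46. Over all genes they were 3482 of 14205, 4792 of 14121 and 2425 of 13628. In CD45 TILs 21 of the 46 genes had every Yap-cKO library below every WT library, against 7.02% of all genes, and in CD4 and CD8 TILs 8 and 10 did, against 12.7% and 13.5%.

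The genes called in CD4 TILs were Cdk2, Ccnd1, Ccnb1, Foxm1 and Rrm2 (lower) and Cdk6 (higher). Cdk2 was at 62.1, 74.6, 167 and 66.0 CPM in the Yap-cKO and at 564, 477, 229 and 271 CPM in WT, a log2 fold change of -1.91 (SE 0.433, adjusted p = 0.02339). Ccnd1 was at 1.91, 4.23, 13.99 and 5.58 CPM in the Yap-cKO against 24.7 to 74.4 CPM in WT (-2.58, SE 0.605, adjusted p = 0.0268). For both genes the highest Yap-cKO library was replicate 3, the Yap-cKO library with the most melanoma RNA (2409 CPM). That library also stood apart in Ptprc (91.6 CPM, others 945 to 1264) and in the T-lineage sum (13170 CPM, others 8184 to 8487). The part of these differences was not tested. Foxm1, the factor that drives G2/M genes, stood at -1.46, Ccnb1 at -1.59 and Rrm2 at -1.32. Cdk6 was at 83.1, 56.2, 47.9 and 74.5 CPM in the Yap-cKO and at 22.8, 25.6, 38.5 and 38.6 CPM in WT (1.16, SE 0.314, adjusted p = 0.04518), with no overlap. The CPM shown share a scaling over all libraries, which shifts log2 changes by 0.121 in this comparison and by at most 0.062 in the others relative to the test's own scaling.

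In CD8 TILs Cdk2, Ccnd1, Ccnb1, Foxm1 and Rrm2 were again lower, joined by Aurka and Cdk1. Cdk2 was at 34.7, 44.8, 130 and 60.6 CPM in the Yap-cKO and at 394, 357, 125 and 383 CPM in WT (-2.19, SE 0.473, adjusted p = 0.02161). Yap-cKO replicate 3, again the library with the most melanoma RNA of its group, and WT replicate 3, with the least of its group, overlapped. Aurka, the spindle pole kinase, was at 10.3, 20.2, 22.4 and 10.1 CPM in the Yap-cKO and at 68.8, 62.9, 34.1 and 62.3 CPM in WT (-1.83, SE 0.333, adjusted p = 0.01804). Cdk1 was at 14.2, 58.5, 63.1 and 60.2 CPM in the Yap-cKO and 219, 168, 89.5 and 172 CPM in WT (-1.68, SE 0.453), and Ccnd1 stood at -2.80. No replication gene was called in CD4, CD8 or CD45 TILs, with medians of the 10 of -0.18, -0.32 and -0.46 and 1, 3 and 6 of them at an unadjusted p under 0.05. DESeq2 called 2142 and 2577 of all genes in CD4 and CD8 TILs, where 14205 and 14121 passed the count filter. Of the 46 genes it called 7, 11 and 5 in the 3 TIL comparisons. Of the 48 other mitosis genes, 1 was called lower in each, the cytokinesis scaffold Anln in CD4 (-1.82), the kinase Pbk in CD8 (-1.66) and the ubiquitin-conjugating enzyme Ube2c in CD45 TILs (-1.32), and the pocket protein genes Rbl2 (1.54) and Rb1 (1.09) were called higher in CD8 TILs.

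In CD45 TILs the called genes were Cdk1, Birc5 and Ccnb1. Cdk1 was at 10.4, 12.9, 15.9 and 16.9 CPM in the Yap-cKO and at 52.3, 36.0, 32.9 and 30.2 CPM in WT (-1.46, SE 0.236, adjusted p = 0.02825). Birc5 was at 10.1, 12.9, 14.6 and 17.9 CPM in the Yap-cKO and 40.6, 30.3, 26.4 and 28.9 CPM in WT (-1.21, SE 0.224, adjusted p = 0.03815), and Ccnb1 stood at -1.29 (adjusted p = 0.04992). All 21 mitosis genes had negative log2 fold changes here, with a median of -0.83. B-cell markers summed to 846 to 1703 CPM in WT and 240 to 868 CPM in Yap-cKO CD45 TILs, and their part in the result was not tested.

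The genotype result depended on how tumor RNA was handled. With the log melanoma sum as a covariate, edgeR called 0 of the 46 genes in CD4, CD8 and CD45 TILs (4, 0 and 2 at an unadjusted p under 0.05). That fit called 0, 1 and 0 genes of 14205, 14121 and 13628 tested, so the 0 is not particular to these genes. The log2 fold changes of Ccnb1 became 0.01, 0.10 and 0.15 and that of Ccnd1 in CD4 TILs 0.24. Of the spread of that covariate, 0.763, 0.622 and 0.804 lay between the genotypes, so the covariate and the genotype are largely confounded and cannot be fully told apart with 8 libraries. Scaling on 15 T-lineage genes, which summed to 2137 to 8068 CPM in WT and 8184 to 13170 CPM in Yap-cKO CD4 TILs, acted the other way, with 25 and 35 of the 46 genes called lower in CD4 and CD8 TILs, and Cdk6 at 0.13, not called. It shifts all genes alike, and 3408 and 5528 of all genes were called there in either direction. With that scaling the median of the 46 genes was -1.81 in CD4 TILs and -1.89 in CD8 TILs. Of the melanoma markers themselves, 7, 4 and 7 of 10 were called lower in Yap-cKO CD4, CD8 and CD45 TILs and none higher. Fibroblast and endothelial markers moved the same way in T-cell TILs, with 3 of the 4 fibroblast markers tested lower in each and 3 and 5 of 6 endothelial markers lower in CD4 and CD8 TILs, while 6 of 8 myeloid markers were higher in Yap-cKO CD8 TILs.

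**Figure D5:**
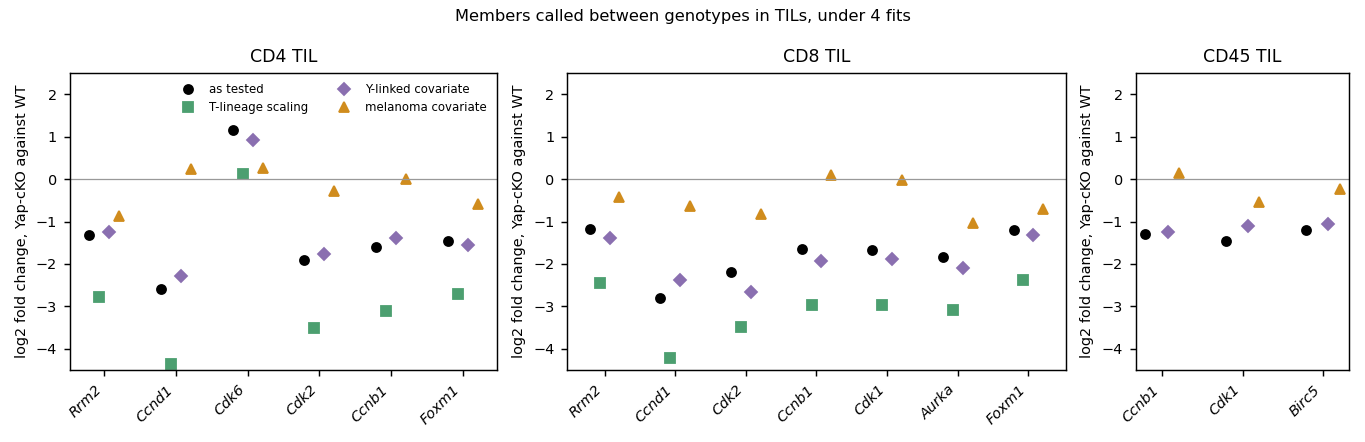
Log2 fold change of Yap-cKO against WT (vertical axis) for the genes called in CD4, CD8 and CD45 TILs, as tested (black circles), after scaling on T-lineage genes (green squares; T cells only), with a Y-linked covariate (purple diamonds) and with a melanoma covariate (orange triangles). Values fall with T-lineage scaling and move toward 0 with the melanoma covariate, where Ccnb1 lies at 0.01, 0.10 and 0.15.

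The other division of the libraries, by Y-linked genes, also runs between the genotypes apart from WT replicate 4. The mitosis sum of that WT library was 1395 CPM in CD4 TILs, above the 698 to 1259 CPM of the Yap-cKO libraries (mean of the Yap-cKO at 0.746 of it), 1737 CPM in CD8 TILs (0.558 of it) and 448 CPM in CD45 TILs (0.644 of it), above every Yap-cKO library in each. With the Y-linked sum as a covariate, 0 of the 46 genes were called in any TIL comparison (5, 21 and 7 at an unadjusted p under 0.05), and 2, 1 and 1 of all genes were. The log2 fold changes of all 16 calls kept their direction. The counts also turned on single libraries. In CD4 TILs, leaving out Yap-cKO replicate 3 gave 15 calls, leaving out WT replicate 4 gave 3, WT replicate 1 or Yap-cKO replicate 1 gave 1, and WT replicate 2, Yap-cKO replicate 2 or Yap-cKO replicate 4 gave 0. In CD8 TILs, leaving out Yap-cKO replicate 3 gave 13 and WT replicate 3 gave 11, WT replicate 4 gave 2, WT replicate 1, WT replicate 2 or Yap-cKO replicate 4 gave 1, and Yap-cKO replicate 2 gave 0. In CD45 TILs, leaving out Yap-cKO replicate 4 gave 3, Yap-cKO replicate 1 gave 1, and any other library 0. Counts over all genes moved as well. In CD4 TILs they were 1139 with all libraries, 3236 without Yap-cKO replicate 3 and 332 without WT replicate 2. In CD8 TILs they were 1719 with all libraries, 2582 without WT replicate 3 and 1 without Yap-cKO replicate 2.

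In the TDLN, where melanoma markers were near the floor, no gene of the 46 was called between genotypes in CD4, CD8 or CD45 cells by edgeR or DESeq2 (0.0462%, 0.0158% and 0.0596% of all genes were called by edgeR). At an unadjusted p under 0.05 were 0, 0 and 2 of the 46, and 228, 120 and 391 of all genes. Bub1 did not have enough counts for the test in CD8 and CD45 TDLN cells. The 2 genes were Plk1 (-1.66, SE 0.683) and Cdc45 (-0.63, SE 0.271) in CD45 cells. Medians of the 46 genes were -0.34, -0.09 and -0.23. Mitosis sums overlapped between genotypes, at ratios of 0.798, 0.980 and 0.854. Whether the genotype effect differs between tissues was tested as an interaction over 16 libraries, and edgeR called none of the 46 genes in CD4, CD8 or CD45 cells (1.36%, 0.422% and 0% of all genes), with 5, 10 and 5 at an unadjusted p under 0.05. Over all genes 2238 of 15087, 2333 of 14937 and 1248 of 14871 were under that unadjusted p. The smallest p-values were for Cdk2 in CD4 cells (-1.82, SE 0.527, adjusted p = 0.09055) and for Cdk2 (-2.26, SE 0.579) and Aurka (-2.04, SE 0.523) in CD8 cells (both adjusted p = 0.0806). DESeq2 called 3, 2 and 0.

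CD8 and CD4 T cells of the same tissue and genotype were compared last. In WT TILs none of the 46 was called (0.119% of all genes) and 0 were at an unadjusted p under 0.05, the median being 0.11, and in Yap-cKO TILs none was called (2.49%) and 1 was at an unadjusted p under 0.05. Over all genes 541 of 14266 (WT) and 1435 of 13902 (Yap-cKO) were under that unadjusted p. In WT TDLN 2 of the 46 were lower in CD8 cells (2.16% of all genes). Ccna2 (cyclin A2), which acts in S phase and G2, was at 4.13, 9.25, 4.95 and 7.53 CPM in CD8 and at 14.7, 15.4, 18.7 and 28.6 CPM in CD4 cells (-1.58, SE 0.336, adjusted p = 0.02672), and Rrm2 at 17.7, 31.4, 17.8 and 24.6 CPM against 41.2, 41.9, 55.6 and 58.2 CPM (-1.10, adjusted p = 0.04002), neither with overlap. Same-numbered CD4 and CD8 libraries deviated together in this comparison (correlations of 0.494 to 0.895), and a fit blocked on the replicate number called 12 of the 46, all lower in CD8 cells, and 891 of 12785 genes in either direction, with 28 of the 46 at an unadjusted p under 0.05. Without the block, leaving out CD8 replicate 1 or 3 or CD4 replicate 1, 3 or 4 left none called, CD4 replicate 2 left 1, and leaving out CD8 replicate 2 gave 4 calls. In Yap-cKO TDLN none was called (2.49%) and 6 were at an unadjusted p under 0.05, as were 1463 of all 12954 genes. DESeq2 called 3 in WT TDLN and 0 in the other 3 comparisons. Among the other mitosis genes, Racgap1, a regulator of cytokinesis, was higher in CD8 TDLN cells, by 2.03 in WT and 2.39 in the Yap-cKO.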

How the data were processed

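RNA of 48 sorted cell samples was made into SMART-Seq v4 libraries. The authors quantified transcripts with Salmon, and the submitters' processing notes name Salmon 0.9.1, Trimmomatic, FastQC and mm10. Each library's deposited table gives an expected count of reads for every transcript (not normalized), a TPM scaled by effective length and depth, and the effective length. Transcript identifiers, stripped of their version, were looked up in GENCODE M21 (111787 of 112092, leaving 0.0488% to 0.18% of reads unmatched), and expected counts were summed over 34932 genes and rounded to whole numbers. The deposited TPM were summed per gene and used only for levels compared between genes and for length offsets. The kit does not mark strand. Exons of 15 of the 46 genes overlap another gene on the opposite strand, so those reads cannot be told apart by strand.

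Comparisons used 8 libraries (2 groups of 4), interactions 16. A gene entered a test if 4 or more libraries held 10 or more of its counts, and tests used edgeR 4.0.16 (R 4.3.3, TMM, quasi-likelihood F test, Benjamini-Hochberg over all genes tested), with calls requiring adjusted p below 0.05 together with a log2 change beyond 1 in size. Standard errors come from the fold change and F. DESeq2 1.42.0 was an alternative, as were no count filter, average transcript length offsets, scaling on T-lineage genes, melanoma and Y-linked covariates, a replicate block, calls with no fold minimum and leaving out each library in turn. A pseudocount of 0.5 CPM entered the Y-linked covariate and the check of pairing. Same-numbered libraries deviated together with every correlation above 0.1 only for CD8 against CD4 in WT TDLN and in Yap-cKO TILs, where the shared number comes from the labels, so the block applies there. Replicates were compared in 72 pairs and none were identical. The fits were tested on simulated counts. Named genes are a set panel (Mcm5, Pcna, Rrm2, Ccne1, Ccnd1, Ccnd2, Mki67, Top2a, Cdk1, Ccnb1, Cdkn1a and Cdkn1b), the called genes of smallest p in each role (up to 5) and in each other list (up to 4), called genes against the prevailing direction, all called genes where 10 or fewer were called, and the highest and lowest of a role. Others named, such as Cdt1, Rrm1, Ccnd3 and Cdc25b, were chosen after their values were seen. Members and lists were chosen with earlier results of these data known. Promoters are RefSeq's on GRCm38.p6. Depth limits genes near 3 counts (0.124 to 0.237 CPM), and this covers counting error only.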

Additional observations from a re-analysis of the deposited data

Results flagged for a closer look

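In groups of 4, a library was flagged when its gap to the nearest other, as a share of the group's range, was above Dixon's critical value for 4 values. Of 312 groups checked 24 were flagged, where chance flags about 1 in 20. Values below are CPM, with the range of the other 3 libraries after each.

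Of the mitosis genes, Mki67 was high in WT CD4 TDLN replicate 4 (24.87, others 0.7261 to 0.861), in WT CD8 TDLN replicate 4 (6.136, others 0.185 to 0.638) and in WT CD8 TIL replicate 1 (73.59, others 12.69 to 22.28). Top2a was high in WT CD4 TDLN replicate 4 (64.17, others 6.76 to 10.68), the library in which Mki67 was high. Cdc25b was high in WT CD4 TDLN replicate 2 (71.64, others 48.96 to 52.44) and in Yap-cKO CD45 TDLN replicate 3 (131.6, others 65.74 to 74.16). Birc5 was high in Yap-cKO CD45 TDLN replicate 1 (5.595, others 2.253 to 2.554). Foxm1 was high in Yap-cKO CD4 TIL replicate 3 (27.27, others 14.46 to 16.19), and Cdk1 was low in Yap-cKO CD8 TIL replicate 1 (14.16, others 58.47 to 63.07), the TIL library with the least melanoma RNA.

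Of the G1/S genes, Cdk2 was high in Yap-cKO CD4 TIL replicate 3 (166.8, others 62.07 to 74.6) and low in WT CD8 TIL replicate 3 (124.8, others 356.7 to 393.7), the libraries with the most and the least melanoma RNA of their groups. Ccne1 was low in WT CD45 TIL replicate 3 (7.166, others 8.787 to 9.108) and high in Yap-cKO CD8 TDLN replicate 1 (27.24, others 13.7 to 15.4), and Ccnd1 was high in Yap-cKO CD8 TDLN replicate 4 (2.057, others 0.5847 to 0.7977). The sum of the G1/S genes was high in Yap-cKO CD45 TIL replicate 1 (936.7, others 736.3 to 763.5).

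Of the replication and nucleotide supply genes, Mcm5 was high in WT CD45 TIL replicate 2 (107.7, others 75.07 to 79.47) and in WT CD8 TIL replicate 4 (279.6, others 161.1 to 181.3). Pcna was high in WT CD45 TIL replicate 1 (194.5, others 114.8 to 123.6), and Cdt1 was low in WT CD4 TDLN replicate 4 (33.62, others 56.17 to 60.61). Rrm2 was low in WT CD45 TIL replicate 3 (35.7, others 53.73 to 55.08), and the nucleotide supply sum was low in WT CD8 TIL replicate 3 (390.0, others 647.3 to 685.7).

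Of the inhibitors, Cdkn1a was high in replicate 4 of Yap-cKO CD45 TDLN (43.4, others 19.8 to 22.28) and of Yap-cKO CD8 TDLN (26.74, others 11.74 to 13.23). Cdkn1b was high in Yap-cKO CD4 TDLN replicate 4 (82.29, others 37.72 to 43.46).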

How the results depend on the processing

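Counts are of the 46 genes unless a role is named, and the cause of a change was not tested unless stated. Between genotypes in TILs, the 6 (CD4), 7 (CD8) and 3 (CD45) calls became 0 in each with the replicate block, the melanoma covariate and the Y-linked covariate. DESeq2 gave 11 in CD8 (2577 over all genes) and 5 in CD45 TILs. T-lineage scaling gave 25 in CD4 (3408 over all genes) and 35 in CD8 TILs (5528 over all genes). The melanoma covariate reversed Ccnd1 in CD4 TILs (0.24) and Ccnb1 in CD4 (0.01), CD8 (0.10) and CD45 TILs (0.15). Between tissues, T-lineage scaling gave 43 calls in WT CD4 cells, and for the replication genes 8 in WT CD4, 10 in WT CD8 and 3 in Yap-cKO CD4 cells. An adjusted p alone, which drops the fold minimum, gave 6 replication calls in WT CD4 and 5 in WT CD45 and Yap-cKO CD45 cells. DESeq2 and no count filter gave 2 replication calls in Yap-cKO CD4 and in Yap-cKO CD45 cells, where the block and length offsets also gave 2. For CD8 against CD4 in WT TDLN, the block gave 12, length offsets 1 and T-lineage scaling 0. For genotype by tissue, DESeq2 gave 3 (CD4) and 2 (CD8), and no count filter 1 and 2. With each library left out, genotype calls ranged 0 to 15 (CD4 TIL), 0 to 13 (CD8 TIL) and 0 to 3 (CD45 TIL), and 0 to 0 in each TDLN. Over all genes they ranged 332 to 3236 (CD4 TIL) and 1 to 2582 (CD8 TIL). Tissue calls ranged 27 to 32, 32 to 34 and 24 to 26 in WT CD4, CD8 and CD45 cells and 18 to 28, 23 to 29 and 14 to 24 in the Yap-cKO. In that order mitosis calls ranged 15 to 19, 20 to 20, 16 to 16, 12 to 19, 15 to 18 and 9 to 15, and replication calls 2 to 3, 3 to 3, 1 to 3, 1 to 3, 1 to 3 and 1 to 2. CD8 against CD4 calls ranged 0 to 4 (WT TDLN), 0 to 1 (Yap-cKO TDLN) and 0 to 0 (both TILs), and genotype by tissue 0 to 4 (CD4), 0 to 3 (CD8) and 0 to 0 (CD45). Elsewhere not every correlation of same-numbered libraries was above 0.1, which does not show that the libraries are unpaired. For CD8 against CD4 they were 0.0824 to 0.831 in WT TILs and -0.122 to 0.857 in Yap-cKO TDLN. With the block, tissue calls were 31, 34, 24, 19, 22 and 22 in the order above. In Yap-cKO TILs, where every correlation of CD4 with CD8 libraries was above 0.1, the block changed no call. The melanoma covariate shared 0.622 to 0.804 of its variance with genotype.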
